A study of Mus musculus with 3 samples.

Results

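The genes described here encode the proteins of the cytosolic ribosome. They were chosen by symbol from the RefSeq protein-coding genes of mouse build GRCm38.p6: every Rpl or Rps symbol followed by a digit, plus Rplp0, Rplp1, Rplp2 and Rpsa, without the Rps6k kinases. The rule gave 91 of 21887 protein-coding genes on assembled chromosomes. Of these, 77 were canonical ribosomal protein genes (46 of the large and 31 of the small subunit), 12 were named copies or paralogues such as Rpl22l1, and the remaining pair were Rps23rg1, a retrogene, and Rps19bp1, which encodes a protein that binds RPS19 and is not itself part of the ribosome. No measured value entered the rule.

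The study examined alveolar type II (AT2) cells, the surfactant-secreting cells of the lung alveolus, from C57BL/6 mice aged 10 to 12 weeks. Cells were fixed in 1% formaldehyde for 11 min and chromatin was sheared to 300 to 500 bp on average. It was immunoprecipitated with an antibody against ETV5, a DNA-binding protein of the ETS family whose expression depends on FGF receptor signalling in lung epithelium, or against H3K4me3, the histone mark of active promoters, and an input library was taken without antibody. The series holds 1 library for each, the labels give no treatment, genotype change or sex, and nothing says how many mice were pooled. All comparisons below are between genes within 1 library, so no difference could be set against replicate spread and no test was made.

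Every growing or secreting cell must keep making ribosomes, with most ribosomal proteins in equal numbers. The ribosomal protein genes are therefore active in nearly all cell types. Their messenger RNAs begin with a run of pyrimidines, the 5′ terminal oligopyrimidine (TOP) tract, through which mTORC1 and LARP1 control their translation, and many of their introns hold small nucleolar RNAs that guide ribosomal RNA modification. ETS factors bind DNA around a GGAA core, with CCGGAA and the longer CCGGAAGT as preferred forms, and many promoters of housekeeping genes hold such letters.

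The promoter sequences that the results below turn on are shown first. Each runs 5′ to 3′ on the strand of the gene, from 130 bases before the annotated start base to 19 bases after it, as given by RefSeq for GRCm38.p6. Capitals mark CCGGAA or its reverse complement TTCCGG. The first set holds 5 members with strong ETV5 peaks and such letters and, last, Rps12, which had a strong peak and none. The windows shown are those of Rpsa at chr9:120127636-120127785 (plus strand), Rpl37 at chr15:5116483-5116632 (plus strand), Rplp2 at chr7:141447521-141447670 (plus strand), Rpl19 at chr11:98026580-98026729 (plus strand), Rpl11 at chr4:136053374-136053523 (minus strand) and Rps12 at chr10:23787190-23787339 (minus strand).
Rpsa: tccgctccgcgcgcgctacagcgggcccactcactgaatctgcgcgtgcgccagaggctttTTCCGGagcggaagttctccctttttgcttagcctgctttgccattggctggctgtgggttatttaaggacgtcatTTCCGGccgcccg
Rpl37: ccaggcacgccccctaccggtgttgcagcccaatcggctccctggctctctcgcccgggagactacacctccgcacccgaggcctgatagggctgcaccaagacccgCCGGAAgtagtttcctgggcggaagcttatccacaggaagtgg
Rplp2: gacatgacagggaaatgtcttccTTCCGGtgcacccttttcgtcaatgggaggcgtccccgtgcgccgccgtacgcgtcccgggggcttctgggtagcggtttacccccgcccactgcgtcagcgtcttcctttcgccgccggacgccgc
Rpl19: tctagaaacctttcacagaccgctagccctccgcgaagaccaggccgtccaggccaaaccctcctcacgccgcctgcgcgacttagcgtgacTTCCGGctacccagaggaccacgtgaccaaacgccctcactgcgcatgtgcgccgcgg
Rpl11: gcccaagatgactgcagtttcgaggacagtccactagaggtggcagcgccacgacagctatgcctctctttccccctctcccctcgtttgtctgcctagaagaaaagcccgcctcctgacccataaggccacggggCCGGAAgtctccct
Rps12: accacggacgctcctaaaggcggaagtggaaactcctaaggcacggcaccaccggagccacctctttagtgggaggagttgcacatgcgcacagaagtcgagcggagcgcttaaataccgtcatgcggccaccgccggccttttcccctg

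The next set compares Rps27, of the small subunit, with its paralogue Rps27l, which encodes a closely related protein, and with the retrocopy Rps27rt. The windows are those of Rps27 at chr3:90213629-90213778 (minus strand), Rps27l at chr9:66945956-66946105 (plus strand) and Rps27rt at chr9:114982720-114982869 (minus strand).
Rps27: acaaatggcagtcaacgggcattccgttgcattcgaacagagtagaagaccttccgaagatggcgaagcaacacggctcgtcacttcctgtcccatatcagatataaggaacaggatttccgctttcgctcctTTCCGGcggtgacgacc
Rps27l: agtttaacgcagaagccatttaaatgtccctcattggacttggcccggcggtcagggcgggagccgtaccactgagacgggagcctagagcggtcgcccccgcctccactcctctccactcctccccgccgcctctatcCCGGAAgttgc
Rps27rt: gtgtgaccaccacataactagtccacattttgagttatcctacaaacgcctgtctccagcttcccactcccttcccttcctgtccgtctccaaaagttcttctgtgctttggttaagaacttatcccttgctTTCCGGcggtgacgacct

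The last set holds members with weak or no ETV5 peaks: Rpl39l, the paralogue of Rpl39 known from testis, had the letters and no peak of either list, and Rps9 and Rpl36a were among the canonical genes with the lowest ETV5 pileups. These windows are those of Rpl39l at chr16:10170098-10170247 (plus strand), Rps9 at chr7:3703911-3704060 (plus strand) and Rpl36a at chrX:134585524-134585673 (plus strand).
Rpl39l: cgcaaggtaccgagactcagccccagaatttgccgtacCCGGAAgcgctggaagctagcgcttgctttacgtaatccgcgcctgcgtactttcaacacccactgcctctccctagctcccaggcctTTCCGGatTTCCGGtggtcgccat
Rps9: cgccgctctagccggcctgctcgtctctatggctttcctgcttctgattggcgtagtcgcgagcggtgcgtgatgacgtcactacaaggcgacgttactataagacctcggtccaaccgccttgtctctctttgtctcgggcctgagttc
Rpl36a: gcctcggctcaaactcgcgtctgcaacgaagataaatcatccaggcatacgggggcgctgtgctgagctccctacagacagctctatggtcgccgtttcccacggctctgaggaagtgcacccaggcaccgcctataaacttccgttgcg

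ETV5 lay near almost every member. An ETV5 summit was within 5 kb of 86 of 91 members (63.1% of all protein-coding genes) and an H3K4me3 summit near 85 (59.4%). Both were near 85 members (56.6%), including all 77 canonical genes. ETV5 was, however, near 95.2% of all genes that had H3K4me3, so that the count adds little to the H3K4me3 count itself. Members with neither mark were Rpl10l, Rpl39l, Rpl32l, Rpl34-ps1 and Rpl31-ps12, all copies of other members. Rpl37rt, another copy, had a weak ETV5 peak of pileup 8 and no H3K4me3. Of the strongest ETV5 peaks of the 86 members, 85 overlapped an H3K4me3 peak (84.6% over all genes with an ETV5 peak).

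The pileup, the number of sequenced fragments stacked at a summit, is the measure of strength used here. Over the 86 members the strongest ETV5 peak within 5 kb had a median pileup of 49 (quartiles 36.25 and 79, range 8 to 213) and a median length of 973 bp, against 30 and 783 bp over all protein-coding genes with a peak. At least 50 fragments were reached by 41 members (27.3% of all genes with a peak) and at least 100 by 12 (7.61%). The strongest H3K4me3 peak had a median pileup of 321 and a median length of 1554 bp, against 243 and 1443 bp over all genes, and 52 members reached 300 (26.7%). Genes whose H3K4me3 pileup lay between the quartiles of the members had a median ETV5 pileup of 44 and a median length of 947.5 bp, close to the values of the members. These genes were longer, with a median extent of 26080 bp against 3175 bp for the members, so their strongest peak was sought over a longer stretch. For the peak nearest to the start their median pileup was 37, against 42.5 for the members and 25 over all genes. Part of the distance from all genes was thus also seen in genes chosen by H3K4me3 level alone.

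Ribosomal protein genes are short, many lie close to other genes, and the strongest peak within 5 kb was not always the one at the gene's own promoter. The median extent of a member was 3175 bp, against 17170 bp over all genes. Another protein-coding gene lay within 5 kb of the strongest ETV5 summit of 53 members (42.9% of all genes with a peak), and for 20 members (20.7%) the start of another gene was the nearer one. In the text below the start peak is the ETV5 or H3K4me3 peak with its summit nearest to an annotated start of the gene. For 21 members no start was listed, and the nearer of both gene ends was used for them and for neighbours of that kind. The strongest and the start peak were different peaks for 16 members, 12 of them canonical (23.9% of all genes with a peak).

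Rpl8, of the large subunit, showed this most. Its strongest peak, the highest of all members, had 213 fragments (exact 95% Poisson interval 185 to 244, for counting error only) but lay 4157 bp from Rpl8 and 27 bp from an end of Commd5. The peak at Rpl8 itself had 31 (21.1 to 44). Rpl24 had 26 (17.0 to 38.1) at its start, and 114 (94 to 137) 28 bp from the start of Zbtb11, a zinc finger gene. Rpl35 had 39 (27.7 to 53.3) at its start, and 112 (92.2 to 135) 4 bp from an end of Arpc5l, a gene of the actin-nucleating Arp2/3 complex. At all 3 genes the intervals of both peaks stood apart, and the stronger was the neighbour's.

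Other members also had a stronger peak at a neighbour, at lower levels. Rpl41, which encodes the smallest ribosomal protein, had 30 (20.2 to 42.8) at its start and 80 (63.4 to 99.6) at 3 bp from the start of Zc3h10. Rpl23a had 19 (11.4 to 29.7), beside 59 (44.9 to 76.1) at Nek8. For both genes the intervals stood apart. Rpl17 had 39 (27.7 to 53.3), beside 64 (49.3 to 81.7) at BC031181. Rps24 had 42, beside 48 at Polr3a, the catalytic subunit gene of RNA polymerase III, and Rpl7a had 34, beside 39 at Surf1, a cytochrome c oxidase assembly gene. For Rpl17, Rps24 and Rpl7a the counting intervals of both peaks overlapped. Rpl12 and Rpl14 differed from these in that no other protein-coding gene lay within 5 kb of the stronger summit: Rpl12 had 51 at its start and 99 (80.5 to 121) at 5234 bp from it, under a further H3K4me3 peak of pileup 222, and Rpl14 had 25 at its start and 61 at 5821 bp. Among the copies, Rpl7l1 had 15 beside 32 at 2310039H08Rik, with overlapping intervals. Rpl3l had 14 beside 29 at Msrb1, a methionine sulfoxide reductase gene, also with overlapping intervals. The peak of 14 was not at the Rpl3l promoter: it lay 3546 bp from the Rpl3l start and 143 bp from that of Ndufb10. Rps27rt had 8 (3.45 to 15.8) at 2438 bp from its start, beside 36 (25.2 to 49.8) in Osbpl10, the gene that contains it. The 5 members with the strongest summit farthest from their own start were Rps23rg1 (19768 bp), Rpl7l1 (9662 bp), Rpl24 (7557 bp), Rpl14 (5821 bp) and Rpl7a (5697 bp).

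**Figure D1:**
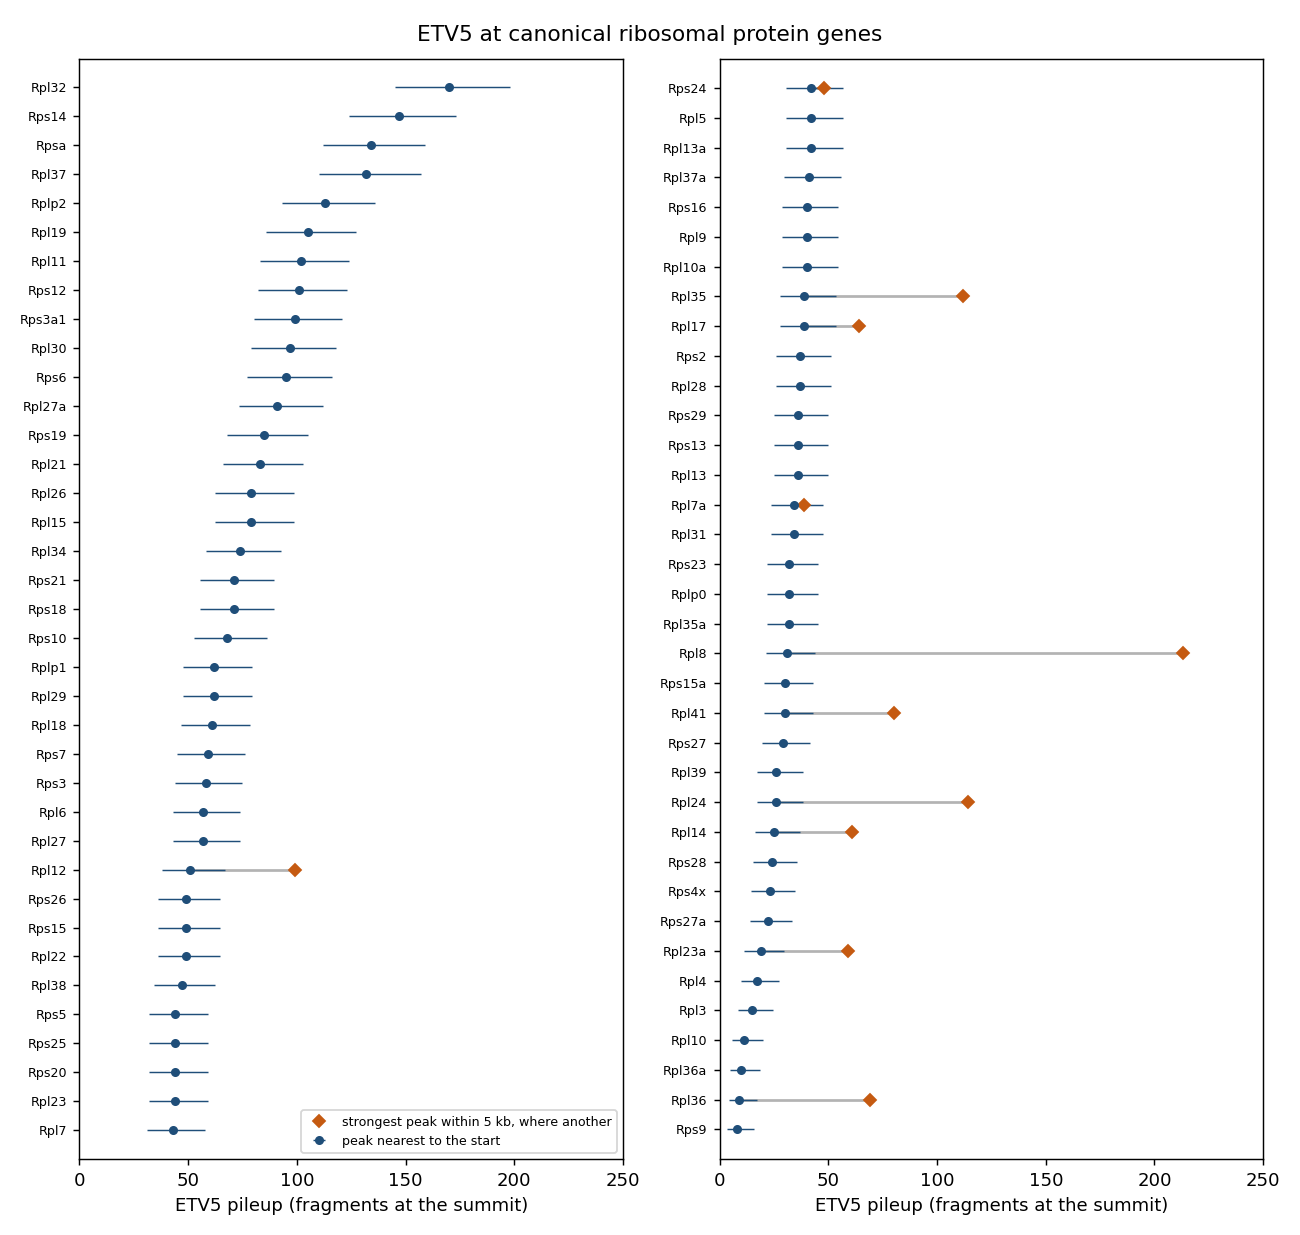
ETV5 pileup (fragments at the summit) of the peak nearest to the start of 73 of the 77 canonical ribosomal protein genes (circles, with exact 95% Poisson intervals) and, where it was another peak, of the strongest peak within 5 kb (diamonds). Genes are ordered by the start peak. Start peaks ran from 8 at Rps9 to 170 at Rpl32, and the diamond of Rpl8 at 213 lies far from its circle at 31.

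With start peaks only, 82 members and 76 of the 77 canonical genes had an ETV5 summit within 1 kb of a start (54.2% of all protein-coding genes). The exception was Rpl17, at 1652 bp. The median start pileup of the 76 was 43.5 (quartiles 32 and 71.75), against 27 (16 and 48) over the 11871 protein-coding genes with such a peak. Of the 76, 63 lay above the median of all genes and 33 above its upper quartile. A pileup of at least 100 was reached by 8 (6.63% of all genes), and 7 canonical genes stayed under 20 (34.2%). The median length was 979.5 bp against 763 bp. For H3K4me3 the median start pileup was 317 (265 and 348) against 236 (152 and 298), and the median length 1547 bp against 1418 bp. Canonical ribosomal protein genes therefore sat in the upper part of the distribution for both marks, and less so at the extremes.

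Among large subunit genes the start pileup had a median of 41.5 (range 9 to 170), and among small subunit genes of 44 (8 to 147). H3K4me3 start pileups had medians of 319 and 317. The ranges of both subunits overlapped widely. The highest values of the large subunit were at Rpl32 (170, interval 145 to 198), Rpl37 (132, 110 to 157), Rplp2 (113, 93.1 to 136), Rpl19 (105, 85.9 to 127), Rpl11 (102, 83.2 to 124) and Rpl30 (97, 78.7 to 118). The summit at Rpl37 lay 149 bp from the Rpl37 start and 98 bp from an end of Card6, and was given to Rpl37 here although it is nearer to the neighbour. In the small subunit the highest were Rps14 (147, 124 to 173), Rpsa, also known as the laminin receptor (134, 112 to 159), Rps12 (101, 82.3 to 123), Rps3a1 (99, 80.5 to 121) and Rps6, the substrate of the S6 kinases downstream of mTORC1 (95, 76.9 to 116). The Rpsa peak lay at chr9:120126943-120128214 and the Rps12 peak at chr10:23786859-23788205 (GRCm38), each across the start of its gene. The Rpl32 peak, at chr6:115808096-115809449, lay across an end of Rpl32. No start was listed for Rpl32, Rps14 or Rpl30, so their values are those of the peak nearest to a gene end. Intervals of Rpl32, Rps14, Rpsa and Rpl37 overlapped, and so did those of the genes from Rplp2 to Rps6. Those of Rps14, Rpsa and Rpl37 also overlapped that of Rplp2. The order of genes with neighbouring values is thus not resolved by counting.

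The lowest canonical start pileups were those of Rps9 (8, interval 3.45 to 15.8), Rpl36 (9), Rpl36a (10, 4.8 to 18.4), Rpl10, whose protein completes the late large subunit (11), Rpl3 (15), Rpl4 (17) and Rpl23a (19). The Rps9 summit lay 547 bp inside the gene and its peak, at 203 bp, was the narrowest start peak of all members. Next were those of Rps27rt (232 bp, with its summit 2438 bp from the start) and Rpl36 (256 bp). Rpl36 has no listed start, and its value depends on the choice of end: a peak of 56 lay inside the gene, 747 bp from an end, under the stronger of its H3K4me3 peaks (340), and one of 69 lay beside Micos13. Rps9 also had one of the lower H3K4me3 pileups (165), whereas Rpl4 had 338, above the canonical median.

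Values also varied within functional groups. The stalk proteins P0, P1 and P2 bind each other and recruit elongation factors to the ribosome, and their genes had start pileups of 32 (Rplp0), 62 (Rplp1) and 113 (Rplp2), with H3K4me3 at 255, 153 and 250. Rpl5 and Rpl11, whose proteins join 5S RNA in the particle that can bind MDM2 and stabilise p53, had 42 (30.3 to 56.8) and 102, and H3K4me3 pileups of 374 and 431. Rpl11 had the highest H3K4me3 start pileup of all members, followed by Rps6 (412), Rps19 (409), Rps14 (404) and Rpl18 (385). The lowest were Rps23rg1 (21), Rpl36a (127), Rplp1 (153), Rps9 (165) and Rpl12 (170). Within 5 kb the highest H3K4me3 pileup was 447, at Rpl24 beside Zbtb11.

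Of the genes known to be mutated in Diamond-Blackfan anaemia, an inherited failure of red cell production, 12 were listed for this comparison, and they had ETV5 start pileups from 32 to 102 with a median of 63.5, and H3K4me3 with a median of 347. Rps19, the gene most often affected, had 85 (67.9 to 105), Rpl26 and Rpl15 had 79 each, and Rpl35a had the lowest of the 12, 32. The list is not complete: Rps27 and Rps28, also known from this disease, had 29 and 24, below its range. Rps27a, which encodes a ubiquitin fusion, had 22 with Clhc1 as the gene of the nearer end. Of ribosome components outside the symbol rule, Fau, the fusion gene of RPS30, had 36 and Rack1, the scaffold on the small subunit, had 41, with H3K4me3 at 304 and 356.

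Small nucleolar RNA genes lay inside 30 of 91 members (1.7% of all protein-coding genes), all of them canonical. Rpl4 held 5 of them, and others, such as Rpl13a and Rpl7a, held 4. Hosts and other canonical genes had the same median ETV5 start pileup of 43, and H3K4me3 medians of 317 and 321.

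Most members had few ETV5 peaks around them. Of the 86, 44 had 1 peak within 5 kb and 42 had 2 or more (57.8% of all genes with a peak). Rpl18 had the most, 8, with pileups from 9 to 61, of which the peak of 61 lay 26 bp from its start. At least 3 peaks lay near 13 members (32.8% of all genes with a peak, whose extents are longer). The widest ETV5 start peaks were at Rpl7 (2153 bp), Rps15 (1648 bp) and Rps19 (1480 bp), and the widest H3K4me3 start peaks at Rpl7 (3532 bp), Rpl41 (2627 bp) and Rps19 (2341 bp). Rpl7 and Rps19 were among the widest in both lists. The narrowest H3K4me3 start peaks were those of Rps23rg1 (585 bp), Rpl3l (913 bp, with its summit 3629 bp from the start) and Rpl6 (1007 bp).

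**Figure D2:**
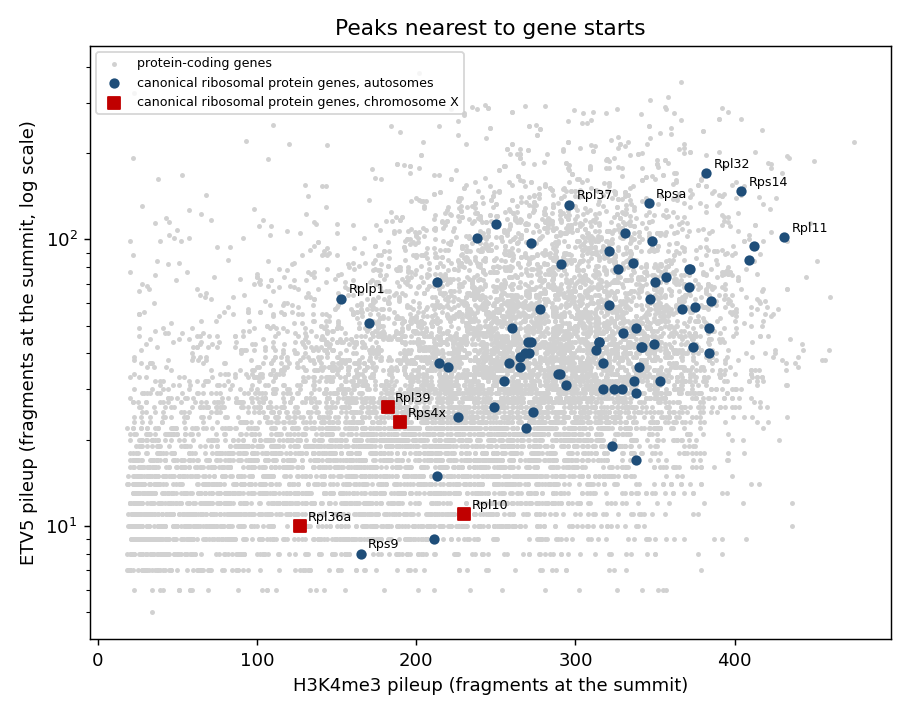
ETV5 pileup (log scale) against H3K4me3 pileup of the peaks nearest to the start, for protein-coding genes with both within 1 kb (grey), canonical ribosomal protein genes on autosomes (blue) and on chromosome X (red squares). The canonical genes lie mostly right of the centre of the grey cloud, and the 4 on X lie to the lower left of most of the others.

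Over the 85 members with both marks, higher ETV5 start pileups went weakly with higher H3K4me3 start pileups (Spearman 0.442, Pearson 0.391). Over 12380 protein-coding genes the coefficients were 0.473 and 0.356. Over the 81 members on autosomes they were 0.38 and 0.338. These are descriptions across genes, which share 1 library per mark and are not replicates. At a given H3K4me3 level the ETV5 values spread widely: Rplp1 had 62 ETV5 fragments at 153 for H3K4me3, and Rps9 had 8 at 165.

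The 4 members on chromosome X were lower in both lists. ETV5 start pileups were 10 at Rpl36a, 11 at Rpl10, 23 at Rps4x and 26 at Rpl39 (median 17), against a median of 44 over the 73 autosomal canonical genes, whose lower quartile was 34. H3K4me3 start pileups were 127, 230, 190 and 182 (median 186), against 321 with a lower quartile of 269. All 4 genes lay below both lower quartiles. The same difference was present over all protein-coding genes, with ETV5 medians of 16 on X and 28 on autosomes and H3K4me3 medians of 138 and 240. The authors' deposited fold enrichment, which is relative to input, was also lower, with ETV5 medians of 9.71 at X and 20.37 at autosomal canonical genes. Over all protein-coding genes the ETV5 fold medians lay closer together, at 9.26 on X and 12.88 on autosomes. The number of X chromosomes in these cells is not given by the labels, and its part in the result was not tested.

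Paralogues and copies differed widely from the canonical genes they resemble. Rps27l had 122 ETV5 fragments at its start (101 to 146), more than Rps27 with 29 (19.4 to 41.6), although Rps27 had the higher H3K4me3 pileup (338 against 290). Rpl36al, on chromosome 12, had 53 (39.7 to 69.3) and its X-linked relative Rpl36a had 10. Rpl22l1 had 65 (50.2 to 82.8) and Rpl22 had 49 (36.3 to 64.8), with overlapping intervals. Rpl7l1 went the other way, with 15 (8.4 to 24.7) against 43 (31.1 to 57.9) at Rpl7. For the other 8 copies that were set beside a canonical gene, no ETV5 peak lay within 1 kb of the start, except the peak of 8 at Rpl37rt. Rpl32 had the highest start pileup of all members and its copy Rpl32l had no peak, and Rpl34 had 74 where Rpl34-ps1 had none. How reads that match both a gene and its copy were placed is not stated in the labels or headers, so values of near-identical copies are uncertain.

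**Figure D3:**
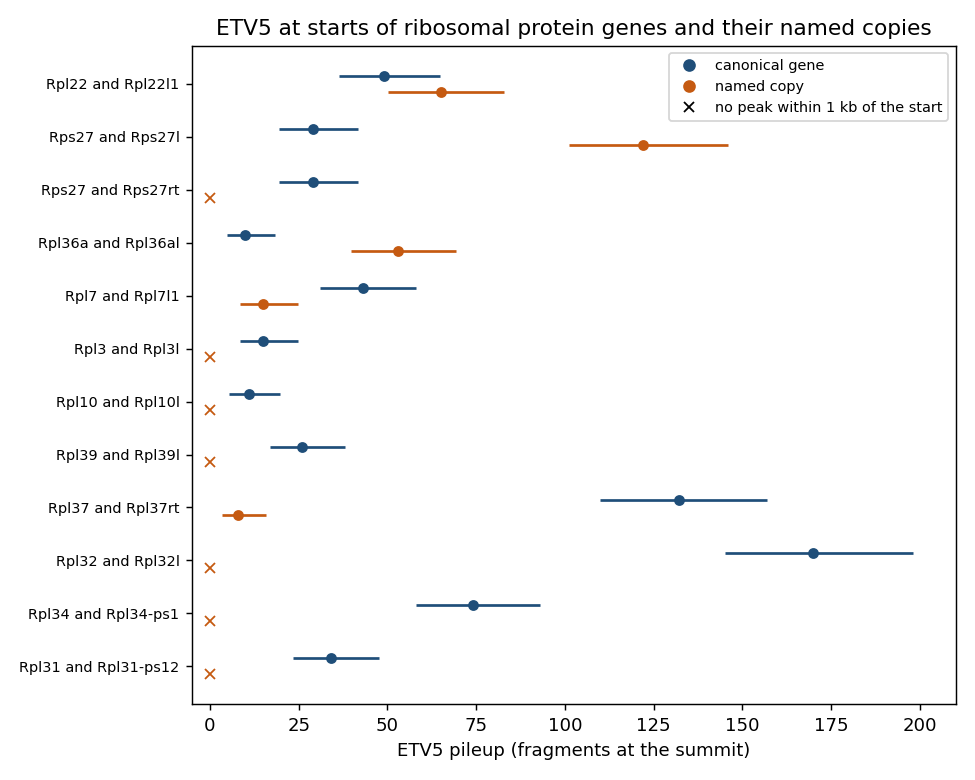
ETV5 start pileup (fragments at the summit) of canonical ribosomal protein genes (blue) and their named copies (orange), with exact 95% Poisson intervals. Crosses at 0 mark copies with no ETV5 peak within 1 kb of the start. Rps27l at 122 lies right of Rps27 at 29, and Rpl32 at 170 has a copy with no peak.

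ETV5 summits lay close to the starts and upstream of the H3K4me3 summits. Of 66 members with a listed start and an ETV5 peak, 57 had the start summit within 250 bp of it (67.3% of all such genes, and 71.4% of those with H3K4me3). For 53 canonical genes both summits lay within 1 kb of the same listed start. Their ETV5 summit was at a median of 38 bp into the gene (quartiles -78 and 104) and their H3K4me3 summit at 214 bp (172 and 252). The ETV5 summit was upstream of the H3K4me3 summit in 48 of the 53 (72.7% of all genes), by a median of 175 bp in the direction of transcription, against 141 bp over 8121 protein-coding genes. Both summits of the members lay where those of other genes lay, at medians of 39 and 211 bp over all genes.

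Among the 57 members with both summits within 1 kb of the same listed start, Rps25 had the ETV5 summit farthest upstream, 602 bp before its start and 436 bp from an end of Trappc4, and Rps9 the one farthest inside. Of these 57, 3 had the H3K4me3 summit before the start, namely Rpl12, Rpl35 and Rps2, against 1312 of 8121 protein-coding genes. Some start peaks lay at the start of a neighbouring gene as well. Another listed start lay within 1 kb of the start summit of 9 members (14.7% of all genes), among them Lias, the lipoic acid synthase gene, at 10 bp for Rpl9, the complex I gene Ndufa7 at 1 bp for Rps28 and Vps52 at 17 bp for Rps18. For these 3 genes and for Rpl7a, whose start summit lay 21 bp from the start of Med22 and 186 bp from its own, the neighbour's start was the nearer one.

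**Figure D4:**
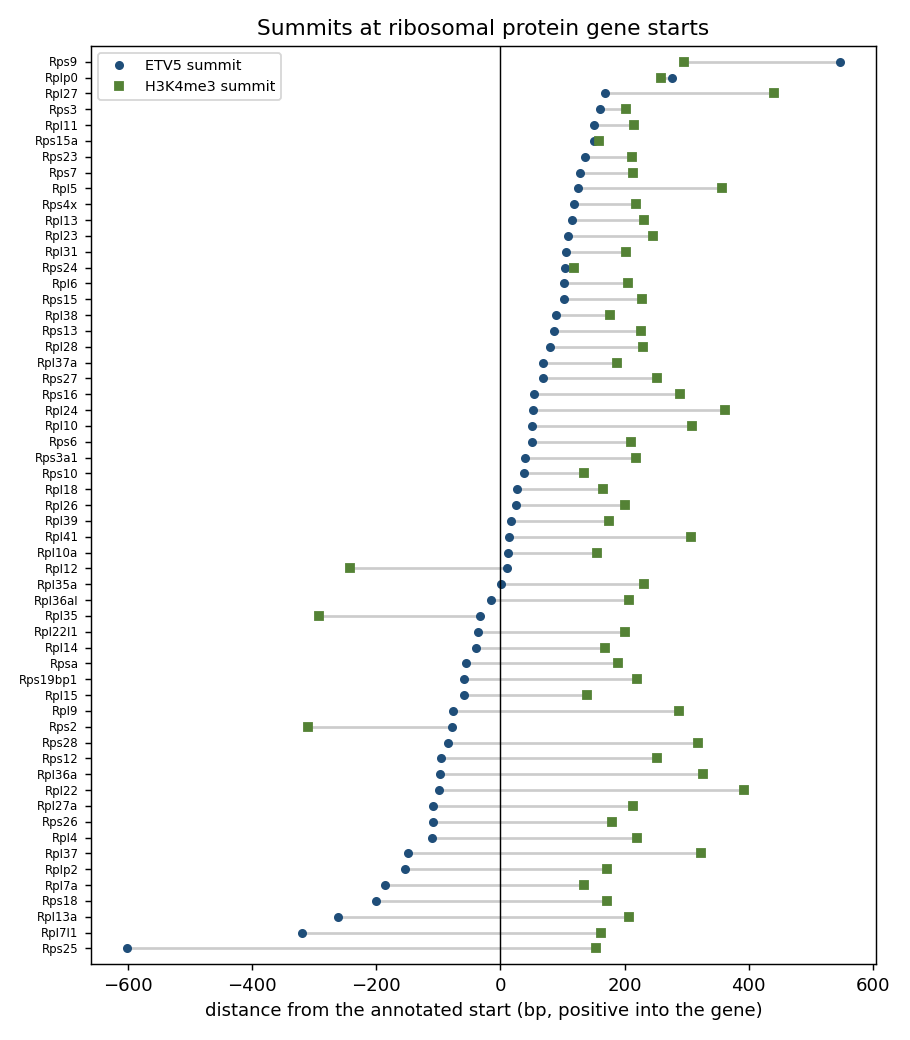
Position of the ETV5 summit (circles) and of the H3K4me3 summit (squares) relative to the annotated start, in bp and positive into the gene, for members with both within 1 kb of the same listed start. Genes are ordered by the ETV5 summit, from -602 bp at Rps25 to 547 bp at Rps9, and most squares lie right of their circle.

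Promoter letters were read in windows of 250 bases before to 50 bases after the start, listed for 70 members and for 17492 protein-coding genes. Where several starts were listed, the most upstream set the window, which need not be the start nearest to the ETV5 summit. At Rpl22 the start summit lay 99 bp from its nearest listed start and 1191 bp from the start that set the window. CCGGAA on either strand was in 33 of 70 windows (47.1%), against 19.1% of all windows and 28.1% of those of genes with H3K4me3. The longer CCGGAAGT, each match of which contains a CCGGAA, was in 12 (17.1%), against 5.28% and 8.23%. GGAAG, which overlaps both, was in 64 (91.4%, against 72.1% and 74.9%). The 100 bases before the start held CCGGAA in 17 windows (10.1% of all and 15.1% with H3K4me3). The genes of the mitochondrial ribosome, the most similar set by function, had CCGGAA in 56.5% of windows and a median ETV5 start pileup of 38, and proteasome genes had it in 45.5% and a median of 30. The share of CCGGAA in the members was thus shared with these housekeeping sets.

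Canonical genes with these letters had higher ETV5 start pileups. Medians were 79 with CCGGAAGT (11 genes, quartiles 41.5 and 103.5), 57.5 with CCGGAA only (18 genes, 39.5 and 70.25) and 38.5 with neither (28 genes, 31.5 and 42.5). The corresponding H3K4me3 medians, 331, 321 and 314, differed little. Over all genes with H3K4me3 the ETV5 medians were 61, 42 and 25, in the same order and lower in each class. The classes overlapped: among the genes with CCGGAAGT were Rpsa (134), Rpl37 (132) and Rpl19 (105) but also Rpl35 (39), Rpl31 (34) and Rpl41 (30), and Rps12 had 101 with neither form. A match is a description of letters and not a binding site, and its part in the pileups was not tested.

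**Figure D5:**
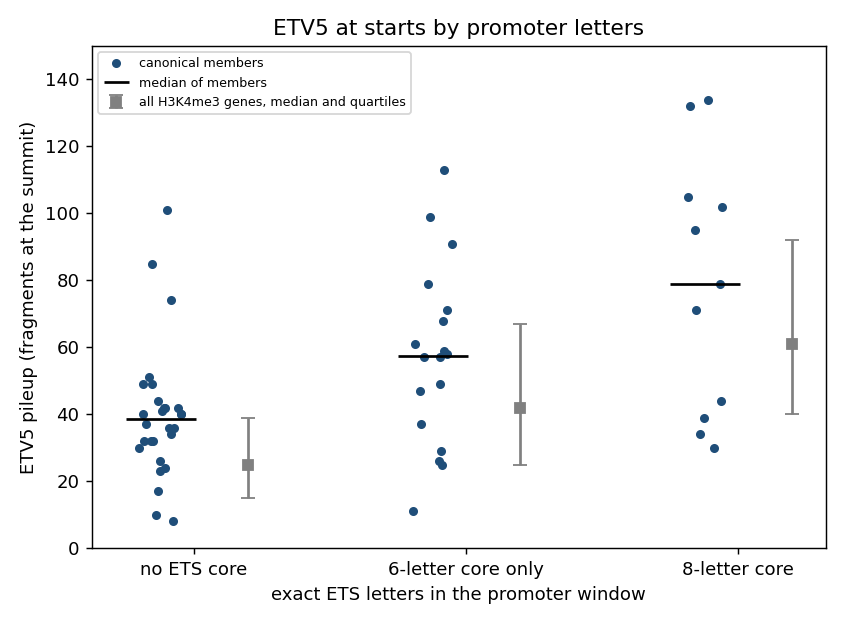
ETV5 start pileup (fragments at the summit) of canonical ribosomal protein genes by the letters in their promoter window: none, CCGGAA only (6 letters) or CCGGAAGT (8 letters). Circles are genes, lines their medians (38.5, 57.5 and 79), and grey squares with bars the median and quartiles over all genes with H3K4me3 (medians 25, 42 and 61).

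In the sequences shown above, the centre of the capitals lies at position -35.5 in Rpl19, -20.5 in Rpl37, -104.5 in Rplp2 and 8.5 in Rpl11, counted from 0 at the start base. Rpsa has matches at -66.5 and 9.5. The windows of Rpsa and Rpl37 hold 3 matches each, including those outside the part shown. Where both a summit and a CCGGAA lay in the window (18 members), their median distance was 45.5 bp, against 31.5 bp over all genes. Of these members, 11 were within 50 bp (61.1%, against 67.0% over all genes) and 17 within 100 bp (94.4%, against 87.0%). Rps27l has a match at 11.5. Rps27 has TTCCGG at 5.5, and the retrocopy Rps27rt repeats it within a stretch of 38 identical bases that begins after the start base. The Rps27rt start had no peak within 1 kb. Rpl39l has 4 matches in its window, more than any member but Rps18, and neither list had a peak near Rpl39l. The 5 matches of Rps18 include overlapping ones, at -212.5 and -210.5 and at -74.5 and -72.5, where TTCCGGAA holds both forms.

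Other promoter letters of the members differed in part from those of other genes. A run of at least 5 C or T bases covering the start base or a base next to it, as in a TOP tract, was in 28 of 70 windows (40.0%, against 18.6% of all and 19.1% of those with H3K4me3), and the longest, at Rpl7a, had 21. AAGATGGC, a form of the YY1 site, was in 6 (8.57%, against 3.21% of all and 4.6% of genes with H3K4me3). GGGCGG, the SP1 box, was in 40 (57.1%, against 46.3% and 64.8%), TATAAA in 9 (12.9%, against 13.3% and 6.77%) and the NRF1 palindrome in 1 (1.43%, against 1.33% and 2.1%). In mitochondrial ribosomal and proteasome genes, AAGATGGC was in 17.4% and 9.09% of windows, so its share was not particular to the members. The C or T run was in 20.3% and 24.2% of these windows, GGGCGG in 49.3% and 57.6%, and TATAAA in 5.8% and 12.1%.

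Depth and identity of the libraries bear on all values. The ETV5 list came from 5715049 tags and the H3K4me3 list from 34907608, so pileups are compared within a list only. Since 1 tag was kept per position, a pileup cannot exceed 406 for ETV5 or 576 for H3K4me3, and the highest in the lists were 381 and 475. H3K4me3 lay near all 12 AT2 markers checked, such as Sftpc, and near 5 of 6 AT1, 1 of 6 endothelial (pileup 36), 2 of 6 leukocyte (Cd68 and Cd79a, not Ptprc), 0 of 5 mesenchymal and 1 of 4 airway markers. A peak within 5 kb can be a neighbour's. The strongest ETV5 peaks of Cd68 and Cd79a lay 3563 and 5548 bp from their starts, nearer to Mpdu1 and Arhgef1. Distances of their H3K4me3 peaks are not given here, so whether those are a neighbour's is not shown. Ribosomal protein genes are active in each of these cell types, so peaks at the members cannot be told apart by cell of origin.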

How the data were processed

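ChIP-seq of AT2 cells gave 1 ETV5 and 1 H3K4me3 library, grouped by the antibody in the labels. Per the file headers, peaks were called per library against 1 input library with MACS2 2.1.0.20150420 at a q-value cutoff of 0.05. Only 1 tag was kept at any position, and fragment lengths were 203 bp (ETV5) and 288 bp (H3K4me3). After filtering, the ETV5 list rested on 5715049 tags and 27495486 input tags, and the H3K4me3 list on 34907608 and 44758677. The input of the ETV5 list carries another name than the input sample of the labels. No label or header names the aligner. Pileup is a signal that, per the file headers, counts fragments at the summit with the larger library scaled down. The ChIP libraries were the smaller, so pileups are unscaled. The authors' deposited fold ratio, −log10 p-value and −log10 q-value are against the local input background.

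The submitters' processing notes name build mm9, but the coordinates are those of GRCm38: of genes with a listed start and an ETV5 peak within 5 kb, 67.3% had the start summit within 250 bp of that start. Genes and promoter windows came from RefSeq tables of GRCm38.p6. Strand and start were listed for 70 of the 91 members. Windows of 250 bases before to 50 after the most upstream listed start were searched for exact letters on both strands.

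A peak was assigned to each gene with its summit within 5 kb of the gene, with Python 3.11.15, numpy 2.4.6, pandas 2.3.3, scipy 1.17.1 and matplotlib 3.10.9. The assignment was tested on simulated data. Poisson intervals of 95% cover counting error only. No test was possible with 1 library per antibody. Genes are named that lack a peak, that have the highest or lowest pileups, the widest or narrowest peaks, the most peaks or the farthest summits, or whose strongest peak is nearer to another start, with functional groups and copies. Members and lists were chosen with earlier results of these data known. Setting Rps23rg1 apart, the comparison of X with autosomes and the classes by promoter letters were chosen after the values were seen. Alternatives varied the window, the peak and gene sets, the threshold and the letters. A few of the genes are not reported by name here but remain in counts and medians.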

Additional observations from a re-analysis of the deposited data

How the results depend on the processing

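Of 68 alternative values, 61 stayed within set limits of the reported ones and 7 did not. The limits were a factor of 1.5 for counts, the 95% counting interval of the reported value for median pileups and 10% for lengths and distances. The counting interval is that of a single count and not the uncertainty of a median over genes. For counts and pileups the limits are wide, so only large changes would pass them. The number of members sharing their strongest ETV5 peak with another gene, 53, was 21 with a window of 1 kb and 83 with one of 20 kb. It was 73 with neighbours among all annotated genes, which is within the factor. The median distance from the strongest ETV5 summit to the start, 113.5 bp, was 97 bp with the start peak and 140.5 bp to the nearer gene end. The number of members with CCGGAA in the window, 33, was 12 with CCGGAAGT, 64 with GGAAG and 17 with the 100 bases before the start. Counts of members with a peak and the median pileups and lengths were among the 61. No paired analysis was possible because each antibody has 1 library. The lower ETV5 depth limits weak peaks: a pileup of 8, as at Rps9, has a counting interval of 3.45 to 15.8.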

Other observations

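Genes that work with the ribosomal proteins were read from lists with the same rules. The 15 other TOP mRNA genes, which include elongation factors and Pabpc1, all had ETV5 and H3K4me3 within 5 kb, with a median strongest ETV5 pileup of 52. Both were near 56.6% of all protein-coding genes, and ETV5 was near 95.2% of those with H3K4me3. The 20 genes of ribosome assembly and ribosomal RNA transcription also all had both, with a median of 49.5 and values from 11 to 154. The 10 regulators of ribosome synthesis, among them Myc, Mtor and Larp1, all had both, with a median of 31.5. The median of the ribosomal protein genes was 49, and that of all protein-coding genes with a peak 30. Some of these strongest peaks lay nearer to another gene, such as that of 110 for Mtor, nearer to Exosc10. With start peaks the medians were 52 for the TOP mRNA genes, 46 for the assembly genes and 24.5 for the regulators. They were 42.5 for the members and 25 over all genes.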
